A study of Mus musculus with 17 samples.

Results

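The genes described are 5 of the 42687 in the deposited count table, chosen by symbol: Hba-a1 and Hba-a2, which encode the adult alpha chain of haemoglobin, Hbb-bs and Hbb-bt, which encode the adult beta chain, and Alas2, the haem synthesis enzyme of red cell precursors. They were followed in 17 RNA-seq libraries of microvessels from mouse brain cortex, in 4 groups. WT mice had received sgp91-ds-tat, the control peptide (n = 5, here WT control), or gp91-ds-tat, a peptide inhibitor of the NADPH oxidase NOX2 (n = 5, WT inhibitor). APP/PS1 mice, a transgenic model of amyloid deposition, had received the control peptide (n = 2, APP/PS1 control) or the inhibitor (n = 5, APP/PS1 inhibitor). The genotype reads APP in the sample labels and APP/PS1 in the series' design text. The labels mark the treatment as SC or NOX2, and SC was taken as the control peptide because the treatment text names only these peptides. All mice were 10 to 11 months old and every group was injected intraperitoneally with 10 mg/kg every 2 days for 2 weeks, so no group was free of peptide. The transgene promoter, the strain and the sex are not given in the labels used here. The vessels were pelleted through dextran from cortex called ipsilateral and after surgery in the protocol, with no further word on the surgery. No source used here says whether the vessels were flushed of blood, or that the libraries of a group came from separate animals, so p-values measure the spread between libraries, which may be technical.

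Haemoglobin joins alpha and beta chains, each holding a haem group that binds oxygen. Red cell precursors fill with globin mRNA, keep some of it as reticulocytes after the nucleus is lost, and lose it as the red cell matures, so globin transcripts in a tissue are commonly read as a sign of blood left in its vessels. ALAS2 catalyses the first and rate-limiting step of haem synthesis in the mitochondria of these cells, a step that ALAS1 performs in other tissues. Alpha globin has also been described in the endothelium of small arteries, and both chains in some neurons. In a bulk sample, fewer red cells and less RNA per red cell cannot be told apart.

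The libraries held 7316503 to 17862965 counts (median 11342154), and 3 counts, taken as the floor, stood for 0.168 to 0.410 CPM, the count scaled to a common library size. Vessel RNA was present: all 10 endothelial markers, such as Cldn5 and Pecam1, passed the filter on low counts, with a summed level of 2810 to 5282 CPM. The libraries also held RNA of other brain cells. All markers of neurons (2590 to 4310 CPM in sum), astrocytes (3062 to 5253) and oligodendrocytes (1441 to 2527) passed the filter too. Markers of choroid plexus epithelium, a tissue outside the cortex, ranged from 335 to 11259 CPM in sum over the 17 libraries, with overlapping groups. No library duplicated another in the 136 pairs compared.

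The alpha genes lie on chromosome 11 and the beta genes on chromosome 7, each pair in tandem and on the same strand. In the GENCODE vM21 annotation of GRCm38, Hba-a1 (ENSMUSG00000069919) spans chr11:32283511-32284465 and Hba-a2 (ENSMUSG00000069917) spans chr11:32296489-32297298, both on the plus strand. Hbb-bs (ENSMUSG00000052305) spans chr7:103826534-103828096 and Hbb-bt (ENSMUSG00000073940) spans chr7:103812524-103813996, both on the minus strand. Alas2 (ENSMUSG00000025270) spans chrX:150547375-150570638 on the plus strand. The members of each globin pair are nearly the same gene in their coding part, which bears on what a count of either one means. The end of the coding sequence of 1 gene of each pair is shown, from base 301 to the last base of the stop codon (429 in Hba-a1, 444 in Hbb-bs), counted from 1 at the first base of the start codon, with the only coding base that differs in its partner in capitals.

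Hba-a1: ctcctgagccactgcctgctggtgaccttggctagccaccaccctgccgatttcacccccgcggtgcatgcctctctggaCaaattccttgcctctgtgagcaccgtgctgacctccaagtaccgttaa

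Hbb-bs: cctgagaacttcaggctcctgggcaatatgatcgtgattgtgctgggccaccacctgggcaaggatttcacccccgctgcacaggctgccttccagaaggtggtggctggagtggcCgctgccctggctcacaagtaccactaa

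Over 429 coding bases, Hba-a1 and Hba-a2 differed at 1 position, C381T, written as the base of Hba-a1, its position counted from the first base of the start codon, and the base of Hba-a2. Over 444 coding bases, Hbb-bs and Hbb-bt differed at 1 position, C417T, in the same notation with Hbb-bs first. Both changes are silent: the alpha pair encodes the same 142 residues and the beta pair the same 147. Cut into every possible block of 50 bases, the transcript of Hba-a2 shared 439 of its 505 blocks (86.9%) with Hba-a1, and that of Hba-a1 shared 439 of 650 (67.5%) with Hba-a2. Hbb-bs shared 381 of 579 blocks (65.8%) with Hbb-bt, and Hbb-bt shared 381 of 654 (58.3%) with Hbb-bs. Alas2 shared 0 of its 1988 blocks with any other transcript. From the start codon on, where blocks hold coding or 3' sequence, 50 blocks belonged to Hba-a1 alone and 66 to Hba-a2 alone, against 159 for Hbb-bs and 160 for Hbb-bt. Over the whole transcript, 211 blocks belonged to Hba-a1 alone, 66 to Hba-a2, 198 to Hbb-bs and 273 to Hbb-bt. The order of the genes thus depends on the part taken. How a read that fits both copies of a pair was counted is not given in the sources used here, so the level of each globin gene is uncertain. The part of such reads in the counts was not tested.

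The 3 genes with measurable counts varied together across libraries, and short stretches upstream of their RefSeq starts are shown with that of an alpha gene. The GENCODE spans given above begin further upstream for the globin genes. By these spans the Hba-a1 and Hbb-bs stretches lie inside the gene, and the Hbb-bt stretch overlaps its first bases. Each line is 30 bases from the RefSeq promoter table of GRCm38.p6, read 5' to 3' on the gene's own strand, with the searched motif letters in capitals. In the stretches shown these are CACCC in the beta genes, CCAAT in all globin genes, its reverse complement ATTGG in Hbb-bt, and in Alas2 TTATCT, which reads AGATAA on the other strand. Each stretch was placed to end shortly after CCAAT, or after TTATCT in Alas2. These letters are therefore in the stretches by choice.

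Hba-a1, chr11:32283564-32283593: gtagagcaagcacaaaccagCCAATgagaa

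Hbb-bs, chr7:103827995-103828024: gagccaCACCCtggtaagggCCAATctgct

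Hbb-bt, chr7:103813989-103814018: gggtaaCACCCtggcATTGGCCAATctgct

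Alas2, chrX:150547312-150547341: aaggagactactttgctttTTATCTttagc

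CCAAT began at -76 in Hbb-bs, -75 in Hbb-bt and -88 in Hba-a1, where -1 is the base just before the RefSeq start. In both beta genes the stretch also held CACCC, the core of a motif bound by KLF1, the erythroid Kruppel-like factor. Over 250 upstream bases all 5 genes held CACCC, in Alas2 on the other strand only. A motif of the GATA factors was also common to most of them: AGATAA at -210 in Hbb-bs and on the other strand of Alas2, and TGATAA at -183 in Hba-a1 and -186 in Hba-a2. These letters were not found in Hbb-bt, nor CCAAT in Alas2. On both strands of 250 upstream bases of all 32851 promoters in the table, CCAAT was found in 33.8%, CACCC in 52.0%, and a GATA motif in 26.5%, meaning AGATAA or its forms that start with T, end with G or do both. TATAA, searched as well and found in 22.8%, began between -30 and -27 in the 4 globin genes and at -207 in Alas2, outside the stretches shown. In those stretches no 2 motifs overlapped, and ATTGG ran straight into CCAAT in Hbb-bt. Such letters are common, and a match is a description of the sequence only.

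The alpha globin genes were at or under the floor in every library. Hba-a1 had 3 counts in all, 1 each in WT inhibitor replicates 2 and 4 and APP/PS1 inhibitor replicate 2, and 0 in the other 14 libraries. Hba-a2 had 2 counts in all, 1 each in WT inhibitor replicate 2 and APP/PS1 inhibitor replicate 5, and 0 in the other 15. Neither passed the filter on low counts, no fold between groups can be given, and a library at 0 allows a level of up to 0.168 to 0.410 CPM depending on its depth. All 5 alpha counts came from inhibitor libraries, which are 10 of the 17, and 5 counts are too few to compare groups.

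The beta genes made up nearly all globin counts. Hbb-bs had 1132 counts over the 17 libraries and Hbb-bt 172, against 5 for the alpha genes, so alpha counts were 0.382% of the 1309 globin counts (95% Wilson interval 0.163% to 0.891%). The 4 globin genes together took 6.35 CPM of all counts summed over libraries. Both chains are needed for haemoglobin and both are abundant in red cell precursors, whereas the counts here were almost all of beta globin. As a measure of blood these genes therefore rest on Hbb-bs, Hbb-bt and Alas2 only. Intervals cover counting error only.

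Hbb-bs, the larger of the beta genes by counts, was in every library but at very different levels. In WT control it was at 0.521, 1.05, 4.27, 4.38 and 5.02 CPM in replicates 1 to 5, numbers that only name the libraries. In WT inhibitor it was at 4.96, 13.5, 0.269, 1.82 and 2.33 CPM. The WT libraries thus ran from the lowest of the whole series, WT inhibitor replicate 3 with 3 counts, to nearly the highest, WT inhibitor replicate 2 with 208 counts. In APP/PS1 control Hbb-bs was at 5.16 and 5.99 CPM, and in APP/PS1 inhibitor at 7.33, 14.8, 4.89, 5.17 and 7.46 CPM. No APP/PS1 library was low: 7 of the 10 WT libraries were below the lowest of the 7 APP/PS1 libraries, and the other WT libraries overlapped them.

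Group means of Hbb-bs were 3.05 ± 2.09 CPM (SD, n = 5) in WT control, 4.57 ± 5.26 (n = 5) in WT inhibitor, 5.57 ± 0.588 (n = 2) in APP/PS1 control and 7.92 ± 4.00 (n = 5) in APP/PS1 inhibitor. Every neighbouring pair in that order overlapped, and the steps of 1.53, 0.999 and 2.35 CPM were each smaller than the larger SD of the groups they separate. Of the pairs that are not neighbours, the control peptide groups did not overlap: the 5 WT control libraries reached 5.02 CPM at most, and the 2 APP/PS1 control libraries started at 5.16 CPM. Hbb-bs did not pass edgeR's quasi-likelihood test in that comparison (adjusted p = 1.00), where 0.0533% of all genes tested did. The gap is narrow, and it rests on 48 counts in WT control replicate 5 and 85 in APP/PS1 control replicate 1. It also depends on the scaling. The abundant Gm26917 and Gm42418 held 11.7% and 7.34% of the counts of these libraries, and with both left out of the totals the groups overlapped. How many of all genes tested were parted in this way was not counted. By genotype, the mean was 3.81 ± 3.86 CPM (SD, n = 10) in WT and 7.25 ± 3.47 (n = 7) in APP/PS1.

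Hbb-bt followed Hbb-bs at a lower level. It was at 0.116, 0.629, 0.711, 0.268 and 0.418 CPM in WT control, and at 0.467, 2.46, 0, 0.130 and 0.466 CPM in WT inhibitor. It was at 0.485 and 0.582 CPM in APP/PS1 control, and at 0.442, 2.80, 0.760, 1.27 and 1.56 CPM in APP/PS1 inhibitor. These are 0 to 38 counts a library, so most values rest on fewer than 10 counts, and the groups overlapped throughout. The means were 0.428 ± 0.247 CPM (SD, n = 5) in WT control, 0.534 ± 0.0685 (n = 2) in APP/PS1 control, 0.705 ± 1.00 (n = 5) in WT inhibitor and 1.37 ± 0.913 (n = 5) in APP/PS1 inhibitor, with each step below the larger SD.

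Hbb-bt held 13.2% of the 1304 beta globin counts (95% Wilson interval 11.5% to 15.1%). By library the share ran from 0% to 37.5% with a median of 13.5%. These extremes are shallow: 0 of 3 counts in WT inhibitor replicate 3 and 6 of 16 in WT control replicate 2. The 95% interval of the library's own share held the summed share in 15 of 17 libraries, but many of these intervals are wide, up to 0% to 56.1% in WT inhibitor replicate 3. The exceptions were WT control replicate 2 (18.5% to 61.4%) and APP/PS1 inhibitor replicate 1, which had 7 of 123 counts, or 5.69% (2.78% to 11.3%). The ratio of Hbb-bt to Hbb-bs, with 0.5 added to each count, did not pass a test between genotypes (APP/PS1 minus WT, mean log2 ratio -0.18, p = 0.671, two-sided exact permutation test over 19448 splits, n = 7 and 10).

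Alas2 gave the most counts of the 5 genes, 1713 in all. In WT control it was at 0.405, 4.82, 7.82, 7.06 and 10.4 CPM, and in WT inhibitor at 11.5, 15.6, 1.08, 3.77 and 5.13 CPM. In APP/PS1 control it was at 4.00 and 12.4 CPM, and in APP/PS1 inhibitor at 5.05, 20.4, 8.14, 10.4 and 14.2 CPM. The same libraries stood at the ends as for the beta genes: APP/PS1 inhibitor replicate 2 was highest and WT inhibitor replicate 2 next for all 3 genes, and WT control replicate 1 and WT inhibitor replicate 3 were the 2 lowest for all 3. Group means were 6.09 ± 3.74 CPM (SD, n = 5) in WT control, 7.42 ± 5.97 (n = 5) in WT inhibitor, 8.20 ± 5.93 (n = 2) in APP/PS1 control and 11.6 ± 5.91 (n = 5) in APP/PS1 inhibitor. All neighbours overlapped, and 3 of 10 WT libraries were below the lowest APP/PS1 library.

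**Figure D1:**
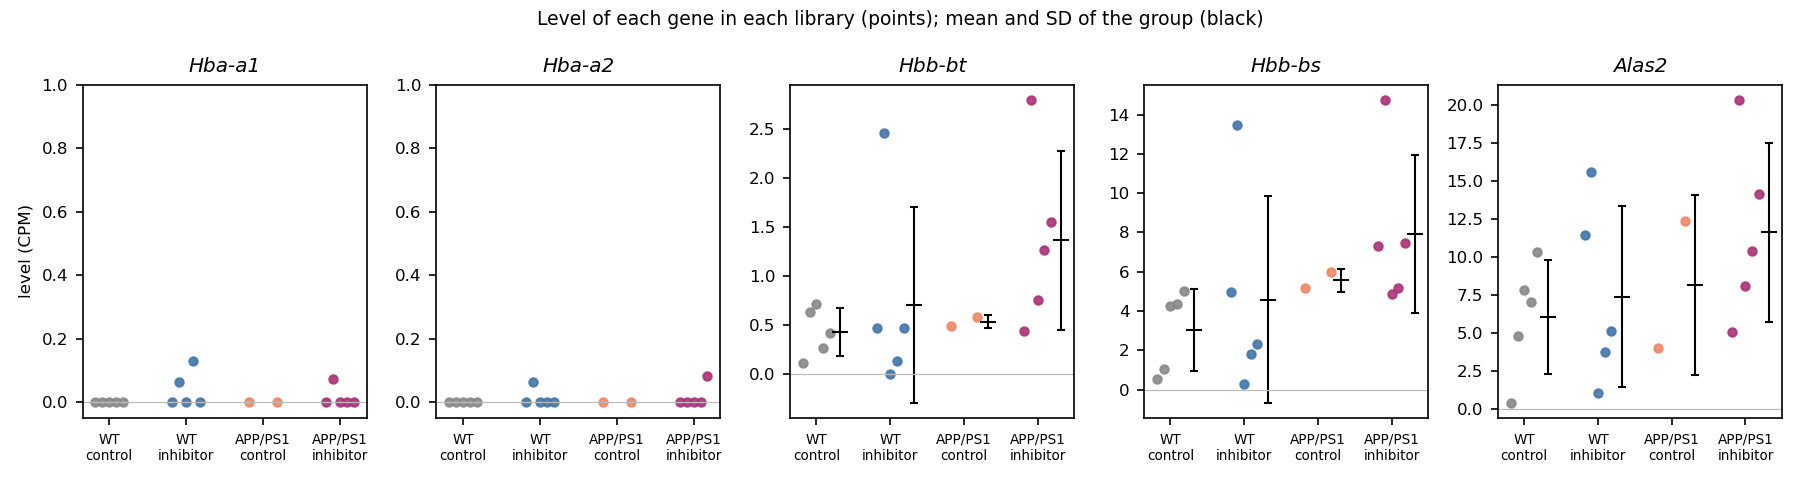
Level of each of the 5 genes (y axis, CPM, a separate scale for each gene) in the 17 libraries, with points for libraries, colours for groups, and the group mean and SD in black for the 3 genes with measurable counts. The alpha genes lie at or near 0 throughout, while Hbb-bs runs from 0.269 to 14.8 CPM and Alas2 from 0.405 to 20.4 CPM. Groups overlap except WT control and APP/PS1 control for Hbb-bs, at up to 5.02 and from 5.16 CPM (n = 5 and 2). That narrow gap depends on how the totals are scaled. The share of all genes parted in this way was not counted.

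Scaled by exon length the order changed. Hbb-bs stood at 6.80 ± 5.20 CPM per kb (SD, n = 17), Alas2 at 3.48 ± 2.23, Hbb-bt at 1.14 ± 1.13, Hba-a1 at 0.0195 and Hba-a2 at 0.0129. In CPM, without that scaling, Alas2 was above Hbb-bs in 14 of 17 libraries, and per kb Hbb-bs was above Alas2 in 15 of 17. The ratio of Alas2 to Hbb-bs counts, with 0.5 added to each, ran from 0.691 to 4.43 with a median of 1.90. Its mean log2 was 0.47 ± 0.66 (SD, n = 7) in APP/PS1 and 0.98 ± 0.72 (n = 10) in WT, a difference of -0.51 that did not pass a two-sided exact permutation test (p = 0.156, and 0.312 with Benjamini-Hochberg adjustment over the 2 ratios tested).

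**Figure D2:**
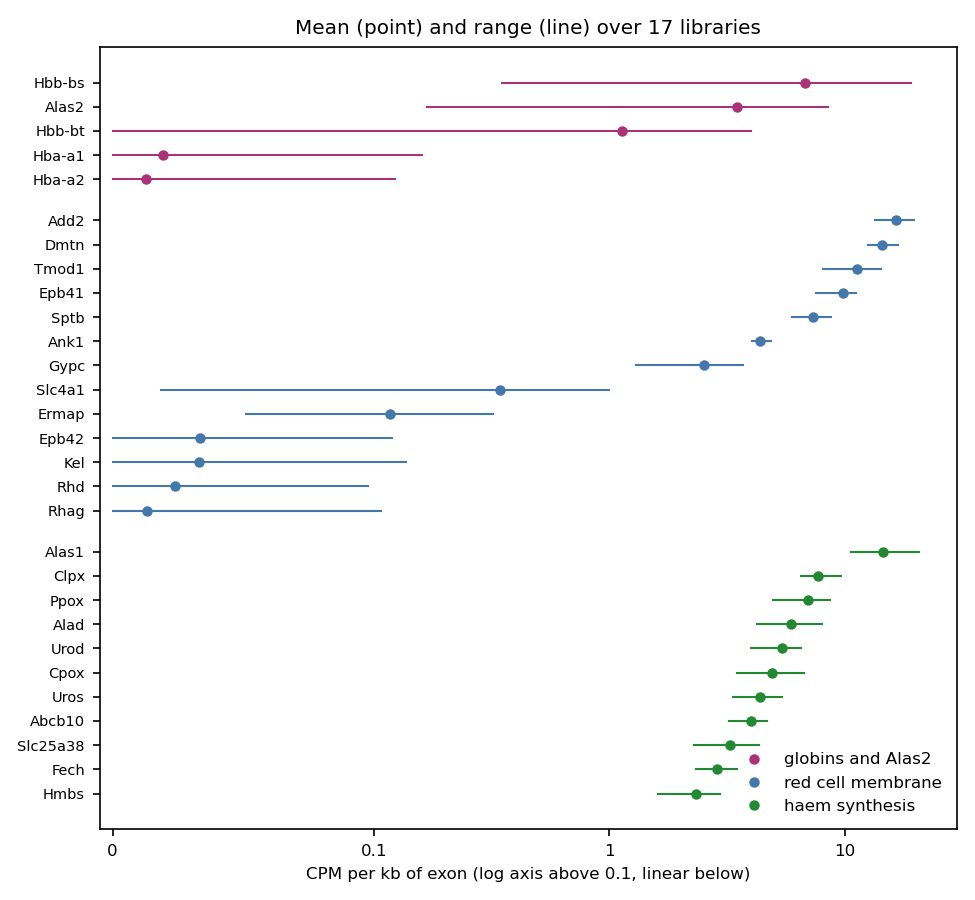
Mean (point) and range over 17 libraries (line) of the level in CPM per kb of exon (x axis, logarithmic above 0.1 and linear below) for the 5 genes, genes of the red cell membrane list and the haem synthesis list. Hbb-bs has a mean of 6.80 CPM per kb and Alas2 3.48, both with long range lines, whereas the haem synthesis genes used in all tissues have short ones.

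The genotype comparison set the 7 APP/PS1 libraries against the 10 WT libraries, with the peptide as a term in the model. All 3 genes with enough counts to be tested were higher in APP/PS1 on average, and none passed the test. In edgeR's quasi-likelihood test, the log2 change was 0.80 ± 0.47 for Hbb-bs (SE; adjusted p = 0.863), 0.68 ± 0.54 for Hbb-bt (adjusted p = 0.942) and 0.56 ± 0.46 for Alas2 (adjusted p = 0.945). In this comparison 110 of the 18753 genes tested passed an adjusted p of 0.05, or 0.587%, with 105 higher and 5 lower. The 3 changes had a median of 0.68, beside 0.00 over all genes tested. An exact permutation test of mean log2 CPM, taken 1 gene at a time and blind to the peptide, gave larger differences: 1.42 for Hbb-bs (p = 0.0312), 1.01 for Hbb-bt (p = 0.0607) and 0.95 for Alas2 (p = 0.152), two-sided and without adjustment over genes. That test was added after the data were seen. Means of log2 values give low libraries, such as WT inhibitor replicate 3 with 3 counts of Hbb-bs, more weight than means of CPM do.

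The estimates depended on single libraries. Without WT inhibitor replicate 2, the high WT library, the edgeR log2 change for genotype was 1.41 for Hbb-bs, 1.49 for Hbb-bt and 0.85 for Alas2. Without APP/PS1 inhibitor replicate 2, the highest library, it was 0.58, 0.35 and 0.36. In neither case did a gene pass: the lowest adjusted p from edgeR was 0.236, for Hbb-bs without WT inhibitor replicate 2.

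The inhibitor comparison over both genotypes gave log2 changes of 0.63 ± 0.49 (SE) for Hbb-bs, 1.13 ± 0.58 for Hbb-bt and 0.43 ± 0.47 for Alas2, each with an adjusted p of 1.00 in edgeR. Hbb-bt was nearest to the threshold, with an unadjusted p of 0.0664 in edgeR. No gene of the 18753 passed (0%), 396 were under an unadjusted p of 0.05 in edgeR, and DESeq2 also called 0. Without WT inhibitor replicate 2 the changes were 0.08 for Hbb-bs, 0.51 for Hbb-bt and 0.15 for Alas2.

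Within each peptide, the genotype changes had the same sign with wider errors. With the control peptide they were 0.91 ± 0.81 (log2, SE) for Hbb-bs, 0.40 ± 1.03 for Hbb-bt and 0.45 ± 0.79 for Alas2, and rested on 2 APP/PS1 libraries. None of the 3 passed (edgeR adjusted p = 1.00 for each), where 10 genes, 0.0533% of those tested, did. Alas2 here took its sign from 1 library, with a log2 change of -0.56 without APP/PS1 control replicate 2 and 1.07 without APP/PS1 control replicate 1. With the inhibitor the changes were 0.74 ± 0.60 for Hbb-bs, 0.80 ± 0.65 for Hbb-bt and 0.62 ± 0.59 for Alas2 (edgeR adjusted p = 1.00 for each), where 34 genes, 0.181%, passed. Leaving out WT inhibitor replicate 2 took Hbb-bs to 1.76, Hbb-bt to 2.26 and Alas2 to 1.11, and leaving out APP/PS1 inhibitor replicate 2 took them to 0.39, 0.34 and 0.31.

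Within each genotype, the inhibitor left the 3 genes without a call. In WT the log2 changes were 0.69 ± 0.66 for Hbb-bs, 0.96 ± 0.78 for Hbb-bt and 0.36 ± 0.62 for Alas2, and all turned negative without WT inhibitor replicate 2 (-0.33, -0.50 and -0.13). In APP/PS1 they were 0.52 ± 0.80, 1.36 ± 0.93 and 0.53 ± 0.79, the last at -0.09 without APP/PS1 control replicate 1. The difference between these inhibitor effects was -0.17 ± 1.02 for Hbb-bs, 0.40 ± 1.25 for Hbb-bt and 0.17 ± 1.00 for Alas2. Every adjusted p in these 3 comparisons was 1.00 in edgeR. No gene of the table passed in them (0% each), 252, 338 and 158 genes were under an unadjusted p of 0.05 in edgeR, and DESeq2 called 0 in each. The SEs of 0.62 to 1.25 were as large as most of the changes.

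**Figure D3:**
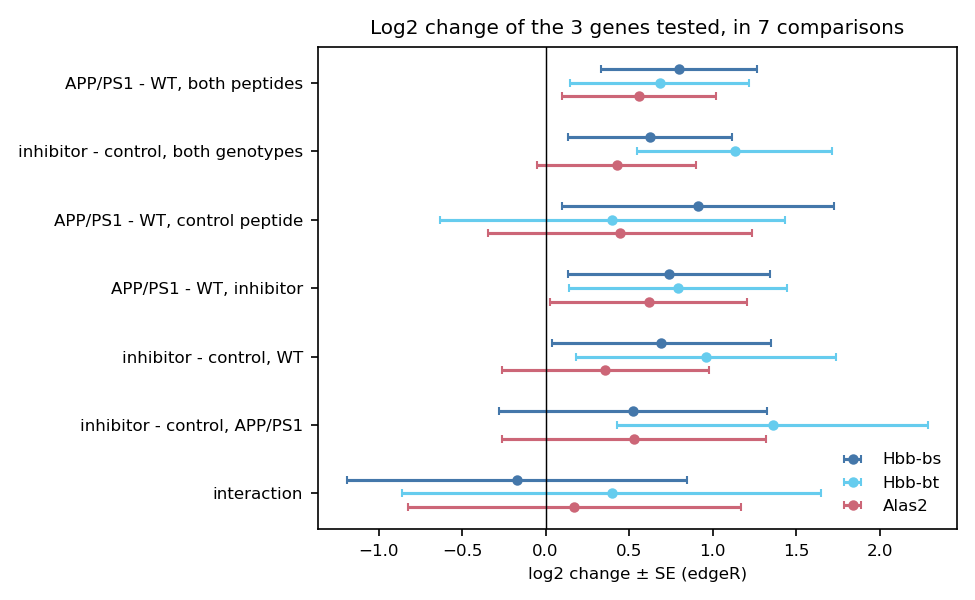
Log2 change and SE from edgeR (x axis) of Hbb-bs, Hbb-bt and Alas2 in each of 7 comparisons (y axis). Estimates lie right of 0 in all but the interaction of Hbb-bs (-0.17), and no adjusted p was below 0.863.

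What set these genes apart from most others was their spread between libraries of the same group. The biological coefficient of variation estimated by edgeR within groups was 0.701 for Hbb-bs, 0.702 for Hbb-bt and 0.668 for Alas2, against 0.162 for the median gene. Genes of the same abundance had trend values of 0.210, 0.306 and 0.192. The 3 genes were more variable than 99.3%, 99.3% and 99.2% of the 18753 genes tested. Over all 17 libraries the SD of log2 CPM was 1.39 for Hbb-bs, 1.10 for Hbb-bt and 1.32 for Alas2, where the median gene had 0.25. Of that variance, 27.9%, 28.1% and 15.8% lay between the 4 groups, and 12.3% did for the median gene, so most of the variance of each lay between libraries that shared genotype and peptide.

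**Figure D4:**
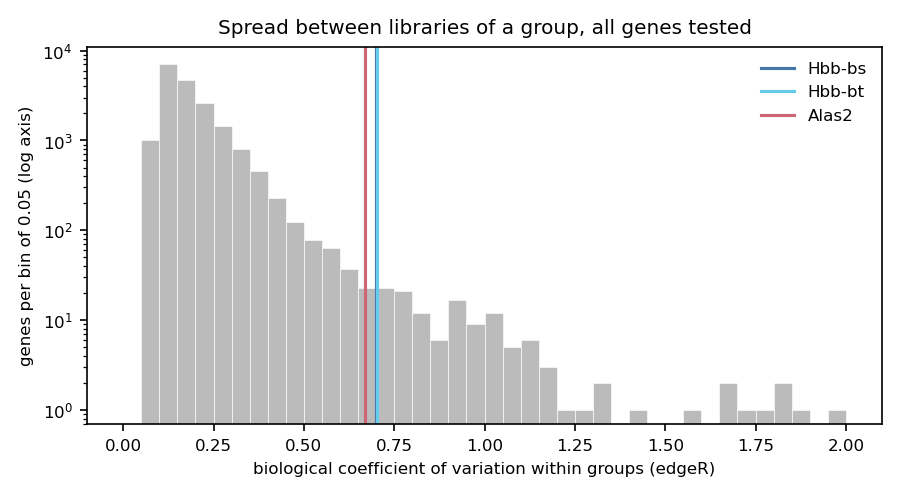
Number of genes (y axis, logarithmic) by biological coefficient of variation within groups (x axis, bins of 0.05), for all genes tested, with lines at Hbb-bs, Hbb-bt and Alas2. The lines, at 0.668 to 0.702, lie far to the right of the bulk of genes, whose median is 0.162.

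The 3 genes varied together across the 17 libraries. Hbb-bs and Alas2 had a Pearson r of 0.880 and a Spearman rho of 0.809 on log2 CPM (permutation p = 6.0e-05 and 0.000480, adjusted over 3 pairs), with r = 0.748 when WT inhibitor replicate 3 and WT control replicate 1 were left out and 0.866 on deviations from group means. Hbb-bs and Hbb-bt had r = 0.816 and rho = 0.699 (adjusted permutation p = 0.000150 and 0.00251), 0.681 without the same libraries and 0.767 within groups. Reads that fit both beta genes could be shared between them, which cannot apply to Alas2, whose transcript shares no block with theirs. Hbb-bt and Alas2 had r = 0.806 and rho = 0.782 (adjusted permutation p = 9.0e-05 and 0.000630), 0.774 without APP/PS1 inhibitor replicate 2 and WT inhibitor replicate 2, and 0.775 within groups. The co-variation therefore held among libraries of the same group. All values of a library share its depth and its preparation.

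Depth and the other tissues of the preparation were set beside Hbb-bs in the same way. Total counts had r = 0.181 and rho = 0.390 with Hbb-bs (adjusted permutation p = 0.748 and 0.356, over 20 measures), and r = 0.636 once the 2 lowest Hbb-bs libraries were left out. The summed endothelial markers had r = 0.101 and rho = 0.201 (adjusted permutation p = 0.877 and 0.757), with r = 0.427 without those libraries. Larger values came from the markers of microglia, with r = 0.463 and rho = 0.547 (adjusted permutation p = 0.205 and 0.127), and r = 0.0977 within groups. Astrocyte markers had r = 0.459 and rho = 0.549 (adjusted permutation p = 0.205 and 0.127), and r = 0.346 within groups. Markers of pericytes and smooth muscle had r = 0.448 and rho = 0.515 (adjusted permutation p = 0.205 and 0.144), and r = 0.474 within groups. Without the 2 lowest libraries, r was 0.509, 0.478 and 0.500 in the same order. The choroid plexus markers had r = 0.342 and rho = 0.0907 (adjusted permutation p = 0.450 and 0.912), with r = -0.09 without the 2 lowest libraries. None of these relations passed the threshold after adjustment, with or without the 2 lowest libraries, and their part in the level of Hbb-bs was not tested further.

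**Figure D5:**
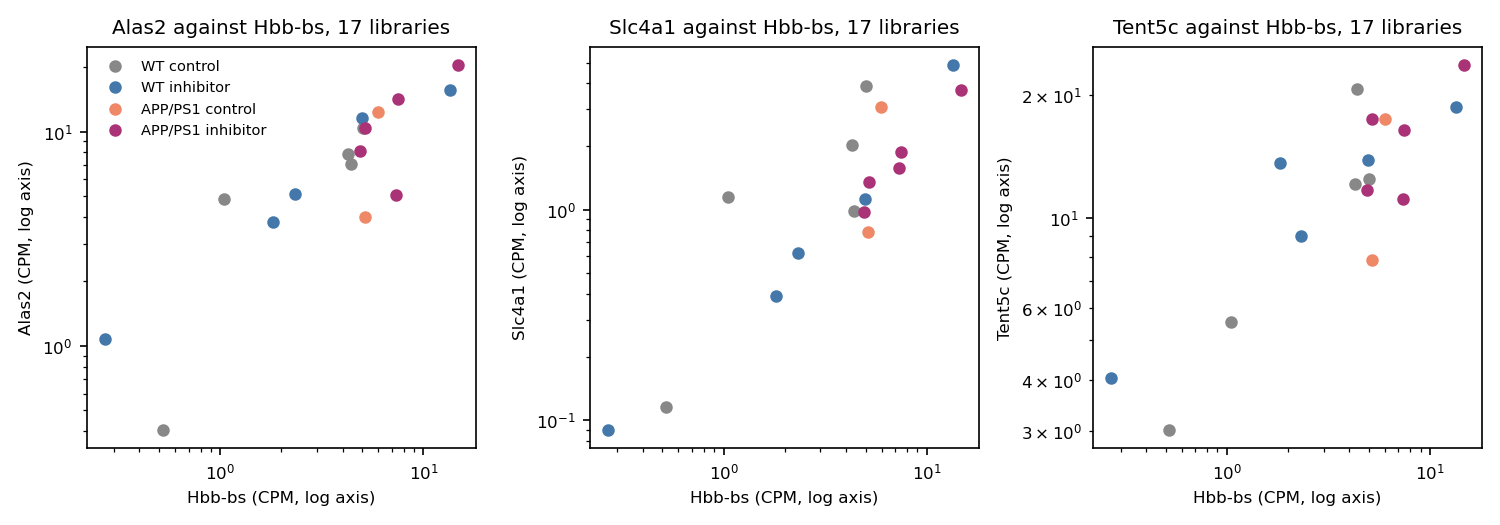
Alas2, Slc4a1 and Tent5c (y axes, CPM, logarithmic) against Hbb-bs (x axis, CPM, logarithmic) in 17 libraries coloured by group. All 3 rise with Hbb-bs, with r = 0.880, 0.863 and 0.865. Slc4a1 and Tent5c are among the genes most alike to Hbb-bs of all genes tested. The high r of Slc4a1 and Tent5c follows from that ranking and is a description only. The 2 libraries at the lower left, WT control replicate 1 and WT inhibitor replicate 3, are low for each gene.

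Other globins showed which members of the family the libraries held. Cygb, which encodes cytoglobin, a globin of fibroblasts and pericytes, stood at 14.8 ± 1.80 CPM (SD, n = 17) and was steady from library to library. Ngb, which encodes the neuronal globin, was at 0.865 ± 0.418 CPM. Hbb-y, an embryonic beta globin, had 35 counts in all, more than both alpha genes, and 0 in 5 libraries. Hbq1a and Hbq1b, the theta globin genes, had 24 and 23 counts, also more than the 5 of the alpha genes, and were at 0 in 3 and 8 libraries. Hba-x, Hbb-bh1, Hbb-bh2 and Hbb-bh0, which are embryonic or minor globins, had 0 counts in all 17 libraries, and Mb, muscle myoglobin, had 2. Of the 10 genes in the list 2 were tested and 0 passed in the genotype comparison over both peptides.

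The 11 genes of haem synthesis other than Alas2 were all tested, and none passed in any of the 7 comparisons. Alas1, the housekeeping counterpart of Alas2, stood at 90.0 ± 17.8 CPM (SD, n = 17). Clpx, a mitochondrial chaperone that acts on ALAS, stood at 27.0 ± 2.65 CPM, and Ppox, a late enzyme of the pathway, at 31.5 ± 4.63 CPM. At an unadjusted p of 0.05 in edgeR, genotype over both peptides had 1 of them, Urod, at a log2 change of -0.20 ± 0.09 (SE, adjusted p = 0.751). In this comparison 6 of the 11 had log2 changes above 0, with a median of 0.01 beside 0.00 for all genes tested. Their summed level had r = 0.105 with Hbb-bs and rho = 0.164 (adjusted permutation p = 0.877 and 0.814). This value depended on the 2 lowest Hbb-bs libraries: without them r was 0.587 (permutation p = 0.0199, and 0.132 adjusted), beside 0.748 for Alas2 without the same libraries.

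The red cell membrane list fell into genes that other cells also use and genes largely restricted to red cells. The highest 3 per kb were Add2, Dmtn and Tmod1, which belong to the membrane skeleton and are also expressed in brain, at 168 ± 17.2, 141 ± 11.4 and 44.5 ± 6.83 CPM (SD, n = 17). They and the other abundant members of the list set its sum, which had r = -0.185 and rho = -0.11 with Hbb-bs (adjusted permutation p = 0.748 and 0.897). Slc4a1, the band 3 anion exchanger of the red cell, was at 1.68 ± 1.40 CPM, between 0.0898 and 4.86. Epb42 had 40 counts in all, Kel had 18, Rhd had 9 and Rhag had 7. These low genes were named after their values were seen. Of the 15 genes 10 were tested and 0 passed in any comparison, with a median log2 change for genotype over both peptides of -0.03 and none under an unadjusted p of 0.05 in edgeR there.

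Some of the erythroid regulators were near 0. Klf1 had 24 counts in 17 libraries, Gata1 had 14 and Gfi1b had 0. Nfe2 had more, 73 counts, and was at 0 in 1 library. Tal1 stood at 9.99 ± 2.39 CPM (SD, n = 17). Ldb1, Lmo2 and Zfpm1, cofactors shared with endothelium and other cells, stood at 77.4 ± 6.77, 34.7 ± 10.5 and 31.6 ± 5.03 CPM. Of these 8 regulators 4 were tested and 0 passed in any comparison, and their sum had r = 0.280 with Hbb-bs (adjusted permutation p = 0.553), or 0.550 without the 2 lowest Hbb-bs libraries (adjusted p = 0.158). In the reticulocyte list, Tfrc, the transferrin receptor, which brain endothelium also carries, stood at 199 ± 28.6 CPM, Car2 at 57.0 ± 11.5 and Bnip3l at 74.0 ± 9.76 CPM. Hemgn and Trim58, which are erythroid, had 13 and 17 counts, and Car1 had 3. Of 16 reticulocyte genes that the table holds, 13 were tested and 0 passed, 11 of them with a log2 change for genotype above 0 and a median of 0.10. The summed list had r = 0.525 and rho = 0.326 with Hbb-bs (adjusted permutation p = 0.154 and 0.505), with r = 0.253 without the 2 lowest Hbb-bs libraries.

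Among all genes tested, the 10 whose log2 CPM was most like that of Hbb-bs over the 17 libraries were Top2a (r = 0.879), Nrp1 (0.876), Tent5c (0.865), Slc4a1 (0.863), Rac2 (0.838), Aplnr (0.821), Frmd4b (0.819), Ncf4 (0.800), Mki67 (0.797) and Oas2 (0.796). Slc4a1 and Tent5c were also alike to Alas2, with r = 0.886 and 0.901, and r with Hbb-bs within groups was 0.889 and 0.855. The rest of the 10 had r from 0.573 (Oas2) to 0.846 (Nrp1) with Alas2. Their r with Hbb-bs within groups ran from 0.728 (Oas2) to 0.852 (Top2a), so these traits were not particular to Slc4a1 and Tent5c. The list holds 2 genes of dividing cells, Top2a at 0.174 to 1.62 CPM and Mki67 at 0.359 to 5.34 CPM, and 2 of leukocytes, Rac2 at 0.449 to 3.04 CPM and Ncf4, a subunit of the phagocyte NADPH oxidase, at 0.180 to 1.77 CPM. Nrp1, a co-receptor for vascular endothelial growth factor, moved over a narrower range, 77.4 to 132.7 CPM. Frmd4b did the same, at 78.5 to 130.9 CPM. These 10 are the top of the values over all genes tested and are given as a description. In edgeR, Slc4a1 had a log2 change for genotype over both peptides of 0.31 ± 0.56 (adjusted p = 0.992) and Tent5c of 0.37 ± 0.32 (adjusted p = 0.949).

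Other cells of blood were compared with Hbb-bs through the sums of their marker lists. The platelet list, led per kb by Pf4 at 1.96 ± 0.744 CPM (SD, n = 17), Ppbp at 2.67 ± 2.97 and Gp1bb at 2.83 ± 0.562, had r = 0.530 and rho = 0.640 with Hbb-bs, neither past the threshold (adjusted permutation p = 0.154 and 0.072), and r = 0.341 without the 2 lowest Hbb-bs libraries. Of its 11 genes 8 were tested and 0 passed in any comparison. The summed platelet level spanned 8.27 to 37.6 CPM in WT control and 11.4 to 28.8 CPM in APP/PS1 inhibitor, so its highest library was not the highest for globin.

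The neutrophil list had rho = 0.777 with Hbb-bs (adjusted permutation p = 0.0114) and r = 0.603 (adjusted permutation p = 0.101), with r = 0.687 without the 2 lowest Hbb-bs libraries. Within groups rho fell to 0.333 and r to 0.402, and that r did not pass (adjusted permutation p = 0.777). The largest part of its sum was Csf3r, the receptor for granulocyte colony-stimulating factor, at 16.95 ± 6.86 CPM (SD, n = 17). S100a8, S100a9 and Ngp, the granule and calprotectin genes of neutrophils, were at 0.849 ± 0.791, 0.632 ± 0.581 and 1.06 ± 1.32 CPM, and Ly6g, which defines mouse neutrophils, had 2 counts in all. Csf3r was the only gene of the 10 lists related to blood and haem that passed a test: it rose in APP/PS1 by a log2 of 1.04 ± 0.12 over both peptides (SE, edgeR adjusted p = 4.27e-05) and by 1.09 ± 0.15 with the inhibitor (adjusted p = 0.00186). The summed neutrophil list ranged from 9.62 to 29.4 CPM in the WT libraries and from 23.0 to 38.3 CPM in the APP/PS1 libraries. Csf3r made most of that sum. Of the 7 neutrophil genes tested, 5 had log2 changes above 0 for genotype over both peptides (median 0.35) and 6 with the control peptide (median 0.96), but 3 with the inhibitor (median -0.44), beside a median of 0.00 over all genes each time. With the inhibitor, Cxcr2, a chemokine receptor of neutrophils, had a log2 change of -2.12 ± 0.95 (SE, unadjusted p = 0.0392 and adjusted p = 1.00 in edgeR). The microglia markers moved the same way as Csf3r for genotype over both peptides. All 6 had log2 changes above 0 and 5 passed in edgeR, where 0.587% of all genes tested did. Within either peptide 0 of the 6 passed. The part of microglia in the Csf3r level was not tested.

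The lymphocyte list had r = 0.717 with Hbb-bs (adjusted permutation p = 0.033) and rho = 0.468 (adjusted permutation p = 0.198). Its relation rested on the libraries with least Hbb-bs, since r was 0.322 without WT inhibitor replicate 3 and WT control replicate 1. Ighm, the heavy chain of immunoglobulin M, made most of the sum at 13.04 ± 4.43 CPM (SD, n = 17), followed per kb by Trbc2, a T cell receptor constant gene, at 2.09 ± 0.606 and Cd79a of B cells at 0.585 ± 0.294 CPM. Of 12 genes 3 were tested and 0 passed. The monocyte list, whose sum was set by Fn1 and Ace, genes that vessels express too, had r = 0.247 and rho = 0.277 (adjusted permutation p = 0.620 and 0.625), with r = 0.537 without the same libraries (adjusted p = 0.158). Of its 7 genes 6 were tested and 0 passed.

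Genes that handle free haem and haemoglobin had no relation to Hbb-bs past the threshold. Hmox1, the inducible haem oxygenase, stood at 2.83 ± 0.620 CPM (SD, n = 17), between 1.75 and 3.77, and had r = 0.0433 and rho = 0.140 with Hbb-bs (adjusted permutation p = 0.976 and 0.848), with r = 0.276 without the 2 lowest Hbb-bs libraries. The summed list, led per kb by Lrp1, Fth1 and Ftl1, which take up haem-haemopexin and store iron, had r = -0.109 and rho = 0.0588 (adjusted permutation p = 0.877 and 0.924), with r = 0.451 without those libraries. Cd163, the haemoglobin-haptoglobin receptor of macrophages, stood at 9.68 ± 4.38 CPM. Of 16 genes 14 were tested and 0 passed in any comparison, with 7 above 0 for genotype over both peptides and a median log2 change of 0.00. In this comparison the log2 change was -0.01 ± 0.17 for Hmox1 and -0.17 ± 0.27 for Cd163 (SE, edgeR adjusted p = 0.999 and 0.991).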

How the data were processed

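Per the labels' protocols, RNA of cortical microvessels was depleted of ribosomal RNA and made into libraries with a stranded Illumina kit. The authors deposited 1 table of raw counts per gene (Ensembl IDs), used here as whole-number read counts; per the submitters' processing notes the tools were cutadapt, STAR, HTSeq and DESeq2 and the builds mm10 and GRCh37, with versions and settings not given in the sources used here. In the table, 20 further columns matched no sample and were left out. Of 42687 IDs, 42250 had a symbol and 437 had none. Library totals were 7316503 to 17862965 counts, and intervals and the floor of 3 counts cover counting error only. Libraries were grouped by the labels; replicate numbers follow accession order and pair nothing.

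Levels are CPM on TMM-scaled totals, per kb of GENCODE vM21 exon where genes are compared. edgeR 4.0.16 in R 4.3.3 (filterByExpr, quasi-likelihood F test, all 17 libraries in 1 fit, Benjamini-Hochberg over 18753 genes, threshold 0.05) tested genotype and peptide in an additive model, and the contrasts within a peptide or genotype and the interaction in a model of 4 group means. The fit was tested on simulated data drawn with the trend spread for each gene's abundance. That spread is far below the spread of Hbb-bs, Hbb-bt and Alas2, so the simulation does not bear on these 3 genes. Alternatives were DESeq2 1.42.0, other scalings, no filter, robust dispersion, each library left out, and an exact permutation test. Correlations (scipy 1.17.1) used log2 CPM with a prior count of 2 and 100000 permutations, over 17 libraries; 3 of the 10 pairs of members were computed, since the alpha genes had at most 1 count in a library. Sequences come from GENCODE vM21 transcripts and the RefSeq promoter table of GRCm38.p6. Named genes are the 5 members, the 3 highest per kb of each related list, any gene of those lists past the threshold, and the 10 most alike to Hbb-bs; other names were chosen after their values were seen. The members and lists were chosen with earlier results of these data known. Of the red cell membrane list, 2 genes are counted in its totals but not reported here by name.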

Additional observations from a re-analysis of the deposited data

Results flagged for a closer look

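Alas2 in WT control replicate 1 stood apart from the other libraries of its group, at a log2 CPM of -0.81 where the other 4 lay between 2.32 and 3.40. Its gap to the nearest of them was 0.744 of the group's range, above Dixon's 95% critical value of 0.71 for 5 samples. It was 1 of 15 such comparisons of a library with its group, of which chance gives 0.75. The same library was the lowest of its group for Hbb-bs, at 0.521 CPM, and for Hbb-bt, at 0.116 CPM, and it was the deepest of the 17, at 17862965 counts.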

How the results depend on the processing

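No paired analysis was possible because the labels give no replicate numbers shared between groups. Under every alternative run for the 7 comparisons, 462 fits of Hbb-bs, Hbb-bt and Alas2 in all, 0 passed an adjusted p of 0.05. Without adjustment, the exact permutation test of Hbb-bs for genotype gave a difference of 1.42 (p = 0.0312). DESeq2 called more genes: 182 for genotype over both peptides (156 higher, 26 lower), 45 with the control peptide and 61 with the inhibitor. Leaving out 1 library at a time, these counts in edgeR ran from 70 to 125, from 4 to 17 and from 15 to 38, and were 0 to 0 in the other 4 comparisons. The log2 changes then ran from -0.56 to 1.07 for Alas2 for genotype with the control peptide. For the inhibitor in WT they ran from -0.33 to 0.99 for Hbb-bs, -0.50 to 1.27 for Hbb-bt and -0.13 to 0.64 for Alas2, the lowest each time without WT inhibitor replicate 2. For the inhibitor in APP/PS1, Alas2 ran from -0.088 to 1.54. The interaction ran from -0.51 to 0.85 for Hbb-bs, -0.044 to 1.86 for Hbb-bt and -0.45 to 1.18 for Alas2. The Pearson r of Hbb-bs with the lymphocyte list was 0.69 within groups and 0.32 without the 2 lowest libraries, neither past the threshold. Relations that turned sign, none past the threshold, were with other globins (0.034 within groups, 0.40 without the 2 libraries), neurons (0.065 and 0.14), Hmox1 (-0.051 within groups), and, without the 2 libraries, haem clearance (0.45), choroid plexus (-0.087) and fibroblasts (0.41). Smaller totals, which left out the 5 genes and the abundant Gm26917 and Gm42418 and were not TMM-scaled, raised mean Hbb-bs in every group, as a smaller divisor does. The mean was then at 3.47 CPM in WT control, 5.07 in WT inhibitor, 6.25 in APP/PS1 control and 8.99 in APP/PS1 inhibitor. The order of the group means stayed, but WT control and APP/PS1 control overlapped. The cause of the other shifts was not tested. Depth limits the alpha genes most, and fits without the filter gave them no usable fold.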
